A study of Homo sapiens with 11 samples.

Results

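Of the 103379 SOX10 peaks called in DMSO-treated 92-1 cells, 29373 (28.4%) shared no base with any DMSO peak of MITF or TFAP2A. These 29373 sites, called SOX10-alone sites here, are described below. The name refers to MITF and TFAP2A only, since SMARCA4 and H3K27ac played no part in the choice. The remaining 74006 SOX10 sites comprised 10615 with MITF, 27441 with TFAP2A and 35950 with both. The line 92-1 comes from a uveal melanoma, a tumour of the pigmented tissue of the eye. Cells received either DMSO, the solvent, or FHT-1015, which inhibits the related ATPases SMARCA4 and SMARCA2, for 4 h. ChIP-seq was done for SOX10, MITF, TFAP2A, SMARCA4 and H3K27ac, with 1 library per antibody and condition and 1 DMSO input. The values were the authors' peak lists, 1 per library, and no library was replicated, so no test was possible and every interval covers counting error over sites only.

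SOX10 is an HMG-box transcription factor of the neural crest that is needed for melanocytes and Schwann cells. In pigment cells it works beside MITF, the factor that turns on the melanin-producing enzymes, and TFAP2A, another neural crest factor. BAF complexes run on either SMARCA4 or SMARCA2 as ATPase and slide or evict nucleosomes so that factors can reach DNA. H3K27ac is an acetyl mark carried by active promoters and enhancers.

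The promoter windows below are examples, not a typical sample. They were chosen as strong SOX10-alone sites that lost or kept SOX10 under FHT-1015 and a site where TFAP2A appeared. Each is the 250 bases upstream of a RefSeq gene start (GRCh38.p14), written 5′ to 3′ on the strand of the gene. Capitals mark the SOX core ACAAAG or ACAATG, or its reverse complement, and the AP-2 element GCCNNNGGC.
DCDC1: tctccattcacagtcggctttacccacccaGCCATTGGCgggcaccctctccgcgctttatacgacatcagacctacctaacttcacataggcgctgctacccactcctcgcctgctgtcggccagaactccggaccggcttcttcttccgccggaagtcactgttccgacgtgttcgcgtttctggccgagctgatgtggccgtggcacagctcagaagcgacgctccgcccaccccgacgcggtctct
RBMS2: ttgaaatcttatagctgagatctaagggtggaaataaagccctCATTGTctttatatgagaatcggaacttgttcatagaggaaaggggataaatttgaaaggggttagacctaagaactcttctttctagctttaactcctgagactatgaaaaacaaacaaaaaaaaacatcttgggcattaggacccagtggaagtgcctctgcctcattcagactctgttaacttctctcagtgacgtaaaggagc
SF3B5: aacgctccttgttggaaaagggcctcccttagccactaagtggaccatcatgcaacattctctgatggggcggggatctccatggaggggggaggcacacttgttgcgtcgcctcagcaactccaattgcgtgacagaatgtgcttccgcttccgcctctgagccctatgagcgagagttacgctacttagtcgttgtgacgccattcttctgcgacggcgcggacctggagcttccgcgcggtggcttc
MRPL47: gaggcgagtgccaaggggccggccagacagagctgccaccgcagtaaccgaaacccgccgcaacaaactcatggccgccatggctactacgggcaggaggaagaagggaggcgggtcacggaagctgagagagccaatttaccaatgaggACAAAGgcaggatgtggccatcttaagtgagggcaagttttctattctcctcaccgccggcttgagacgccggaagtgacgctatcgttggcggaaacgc
IRAK1BP1: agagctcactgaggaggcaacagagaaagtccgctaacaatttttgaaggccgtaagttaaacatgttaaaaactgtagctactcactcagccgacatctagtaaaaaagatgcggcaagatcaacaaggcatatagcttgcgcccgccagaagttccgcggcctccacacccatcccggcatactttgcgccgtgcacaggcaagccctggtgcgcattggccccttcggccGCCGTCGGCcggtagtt
The DCDC1 window (chr11:31369740-31369989, minus strand) lay under a SOX10 peak with its summit 60 bp upstream of the start. It held the AP-2 element GCCATTGGC and no SOX core, and its SOX10 peak, with −log10 p of 29.8 in DMSO, had no counterpart under FHT-1015. The window of RBMS2 (chr12:56521570-56521819, plus strand), which encodes an RNA-binding protein, held 1 SOX core. Its SOX10 peak (−log10 p 21.8) was also lost, and a TFAP2A peak with −log10 p of 10.3 was called there under FHT-1015. At SF3B5 (chr6:144095574-144095823, minus strand), a splicing factor gene, neither element was found, and the SOX10 peak had −log10 p of 32.3 in DMSO and 10.2 under FHT-1015. At MRPL47 (chr3:179604647-179604896, minus strand), a gene for a mitochondrial ribosomal protein, the window held 1 SOX core, and SOX10 was called in both lists (29.5 and 6.70). IRAK1BP1 (chr6:78867301-78867550, plus strand) had the AP-2 element GCCGTCGGC. SOX10 was called there in DMSO only (10.1), and TFAP2A under FHT-1015 only (24.1). All 5 windows carried H3K27ac in both conditions, whether or not SOX10 was kept. The windows of SNX29, TRIP11 and ARMC8, picked by the same rules and not shown, held no SOX core and no AP-2 element.

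Windows under SOX10-alone sites differed in letters from windows under the other SOX10 sites. The summits of 333 SOX10-alone sites fell in 365 upstream windows, some of them shared by neighbouring genes. A SOX core was present in 95 of these 365 windows (26.0%, 95% Wilson interval 21.8 to 30.8), against 15.0% of 5939 windows under other SOX10 summits and 21.2% of all 35116 RefSeq windows. The AP-2 element was present in 13.4% (10.3 to 17.3), against 28.7% and 19.8%. An E-box of the kind MITF binds (CACGTG or CATGTG) was present in 11.5% (8.63 to 15.2), against 18.7% and 15.2%. The AP-1 element TGANTCA, was in 4.93%, 4.14% and 6.57%. Both strands were searched, and no match overlapping another motif was removed. GC content moved with these shares, with a median of 57.6% under SOX10-alone summits, 65.2% under other SOX10 summits and 58% in all windows. Its part in the motif shares was not tested. A match is only a string of letters, not a bound site.

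The SOX10-alone sites were the weak end of the SOX10 list. Their median −log10 p in DMSO was 4.84, against 7.14 at sites with MITF, 7.01 with TFAP2A and 16.6 with both. The median fold over background given by the authors was 3.22, and the median peak width was 237 bp, against 526 bp at sites with both factors. The number of reads at the summit, recovered from fold and p, had a median of 13 at SOX10-alone sites and 34 at sites with both. A −log10 p of at least 10 was reached by 2990 SOX10-alone sites (10.2%) and by 50.3% of the other SOX10 sites. The strongest SOX10-alone site reached 119, whereas the list went up to 333. The sites were chosen by the DMSO SOX10, MITF and TFAP2A peak calls, so these values are given as description.

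Many SOX10-alone sites had MITF or TFAP2A close by. The median gap to the nearest DMSO peak of either factor was 2920 bp, 8903 sites (30.3%) lay less than 1 kb away, and 6099 (20.8%) lay more than 10 kb away. At the edge of the rule, 135 sites lay within 10 bp of such a peak without touching its bases. Their median −log10 p was 4.34, 8.89% kept SOX10 under FHT-1015 and 36.3% had SMARCA4 in DMSO. Another 135 SOX10 sites overlapped such a peak by at most 10 bp and so were not counted as SOX10-alone. For these the values were 4.46, 8.15% and 47.4%.

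SOX10-alone sites were mostly away from gene starts. Among 27399 sites on chromosomes with gene starts in the table used, 2074 (7.57%) lay within 1 kb of a RefSeq gene start, here called promoter sites, against 21.4% of the other SOX10 sites. The share was 7.50% at sites with MITF, 23.7% with TFAP2A and 23.7% with both, so SOX10-alone sites were placed like sites with MITF only. Inside the body of a protein-coding gene lay 51.0% of SOX10-alone sites and 52.9% of the others.

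SMARCA4 and H3K27ac, which the choice of sites did not use, were much rarer at SOX10-alone sites than at the rest. In DMSO, 6097 SOX10-alone sites lay under a SMARCA4 peak (20.8%, 20.3 to 21.2), against 68.6% of the other SOX10 sites. An H3K27ac peak covered 6796 (23.1%, 22.7 to 23.6), against 60.1%. Under FHT-1015 the shares at SOX10-alone sites were 16.7% for SMARCA4 and 19.6% for H3K27ac, against 53.7% and 50.5% at the others. Sites with 1 of the factors lay between, with SMARCA4 in DMSO at 53.6% of sites with MITF and 54.6% of sites with TFAP2A, and sites with both were highest at 83.8%.

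**Figure D1:**
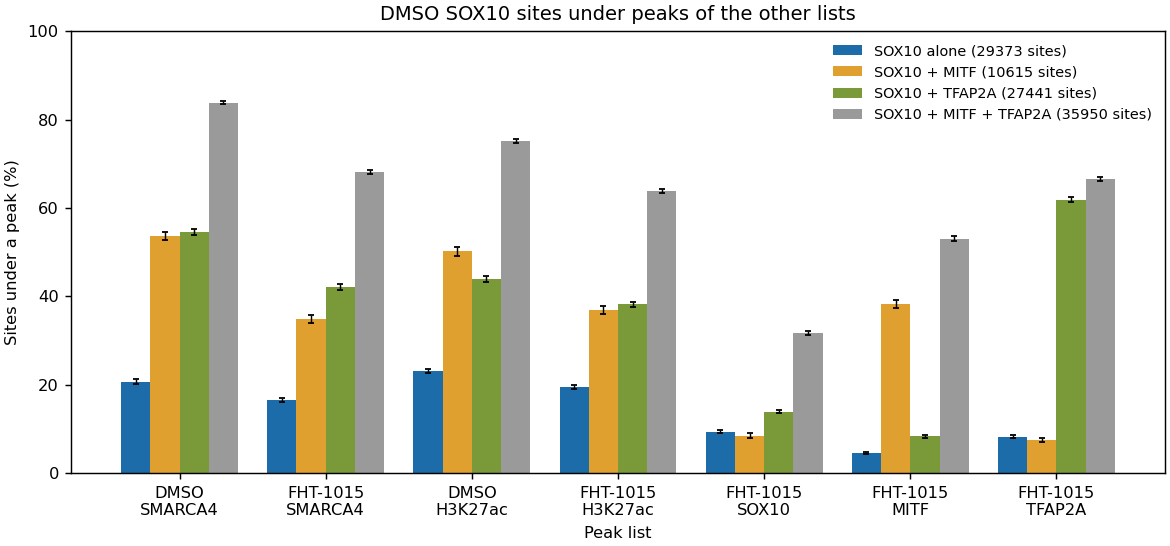
Share of DMSO SOX10 sites (y axis, %) that lay under a peak of each of 7 other lists (x axis), for SOX10 sites without MITF or TFAP2A (SOX10 alone) and for the other 3 classes; bars are shares and lines are 95% Wilson intervals over sites. SOX10-alone sites were lowest for SMARCA4 and H3K27ac in both conditions, at 20.8% and 16.7% for SMARCA4 and 23.1% and 19.6% for H3K27ac.

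This gap held at equal SOX10 strength. The SOX10 list was cut into 10 equal parts by −log10 p, and shares were compared within each part. SMARCA4 in DMSO was rarer at SOX10-alone sites in 10 of 10 parts, from 16.5% in the weakest part to 74.1% in the strongest. At sites with both factors the corresponding shares were 60.8% and 98.0%. Averaged over the parts, the difference from the other SOX10 sites was −32.6 percentage points for SMARCA4 (−47.9 unmatched) and −23.0 for H3K27ac (−36.9 unmatched). Matching on promoter position as well left −30.2 and −18.4.

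The sites fell into 4 states in DMSO. Both SMARCA4 and H3K27ac covered 3600 SOX10-alone sites (12.3%), SMARCA4 without H3K27ac 2497 (8.50%), H3K27ac without SMARCA4 3196 (10.9%), and neither 20080 (68.4%). Of the 20080 sites with neither, 18816 (93.7%) still had neither under FHT-1015. Sites with SMARCA4 but no H3K27ac were the least stable, since 1716 of 2497 (68.7%) had neither under FHT-1015. Of the 3600 sites with both, 2129 (59.1%) had both again, 695 (19.3%) had H3K27ac alone and 487 (13.5%) had neither. Sites with H3K27ac alone had gained SMARCA4 in 978 of 3196 cases (30.6%).

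Under FHT-1015 the SOX10 peak itself was gone from most of these sites. Of 29373, 2764 (9.41%, 9.08 to 9.75) lay under an FHT-1015 SOX10 peak and were called kept. Loss was general in the SOX10 list, where 81.7% of all DMSO peaks had no FHT-1015 peak, and 21.9% of the other SOX10 sites were kept. The share kept was 8.49% at sites with MITF, 14% with TFAP2A and 31.8% with both. Averaged over deciles of SOX10 strength most of this difference was gone, but at strong sites it remained. The matched difference between SOX10-alone and other sites was −1.05 points, with SOX10-alone sites lower in 4 of 10 deciles. With promoter position also matched it was 0.856 points in the other direction, although SOX10-alone sites were lower in 12 of 19 groups. Among sites with −log10 p of at least 10, not matched further, 15.0% of SOX10-alone and 34.4% of other sites were kept. On matched averages SOX10-alone sites were kept more often than sites with MITF only (3.78 points, or 3.41 with promoter position matched too). In the latter, 9 of 19 groups went the other way. At promoters, unmatched, 13.8% of SOX10-alone sites and 23.2% of sites with MITF only were kept. SOX10-alone sites were kept less often than sites with both (−5.35 points, or −1.96 with promoter position matched too).

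**Figure D2:**
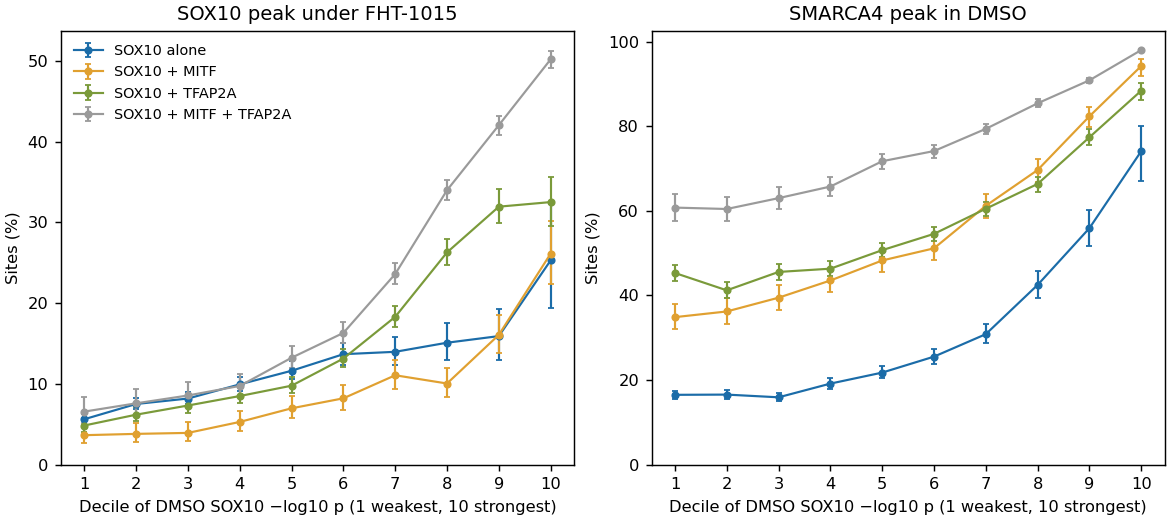
Share of SOX10 sites (y axes, %; the panels have different scales) with a SOX10 peak under FHT-1015 (left) and with a SMARCA4 peak in DMSO (right), by decile of the DMSO SOX10 −log10 p (x axes), for the 4 classes; points are shares and lines are 95% Wilson intervals. In the strongest decile 25.3% of SOX10-alone sites and 50.2% of sites with both factors kept SOX10, whereas in the weakest the shares were 5.63% and 6.58%.

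The share kept went up with the strength of the site. Between the weakest and the strongest decile the share of SOX10-alone sites kept went from 5.63% to 25.3%. At sites with both factors it went from 6.58% to 50.2%. Of the 2990 SOX10-alone sites with −log10 p of at least 10, 448 (15.0%) were kept. The FHT-1015 SOX10 library was the deeper of the pair, with an inferred depth 1.15 times that of DMSO. However, its list held 33268 peaks, of which 57.9% had a q-value under 0.05, against 92.3% of the 103379 DMSO peaks. Whether the enrichment of that library played a part in the loss was not tested.

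Kept SOX10-alone sites were weak in the FHT-1015 list too, with a median −log10 p of 4.79, and 224 of 2764 reached 10. The FHT-1015 summit fell inside the DMSO site in 2236 cases (80.9%). In 182 cases (6.58%) the FHT-1015 peak also covered another DMSO SOX10 peak. Kept sites more often carried H3K27ac in DMSO (33.4%, against 22.1% of lost sites) and SMARCA4 (26.1% against 20.2%). At equal SOX10 strength, SOX10 was kept 4.93 points more often with H3K27ac than without, with the same direction in 10 of 10 deciles. For SMARCA4 the difference was 1.74 points, and 4 of 10 deciles went the other way. Split by state, SOX10 was kept at 15.9% of sites with both marks, 11% with H3K27ac only, 8.43% with neither and 6.01% with SMARCA4 only.

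SMARCA4 and H3K27ac also stayed more often where SOX10 stayed. Of SOX10-alone sites with SMARCA4 in DMSO, 73.9% (70.6 to 77.0) had it under FHT-1015 where SOX10 was kept and 47.9% (46.6 to 49.3) where SOX10 was lost. For H3K27ac the shares were 93.1% and 70.4%. Distal sites, more than 1 kb from a gene start, showed the same order, with SMARCA4 kept at 69.8% and 42.1% and H3K27ac at 90.2% and 64.8%. At promoter sites SMARCA4 was kept at 88.0% and 81.0%, whose intervals overlap. H3K27ac was kept there at 99.6% (97.7 to 99.9) and 92.7% (91.0 to 94.0). These shares were not matched for SOX10 strength.

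Over all SOX10-alone sites, SMARCA4 was lost from 2987 of 6097 (49.0%). The same loss was 48% over all DMSO SMARCA4 peaks and 32.8% over all SOX10 sites with SMARCA4. H3K27ac was lost from 1803 of 6796 (26.5%), against 40.7% of all DMSO H3K27ac peaks and 21.4% of SOX10 sites with H3K27ac. New SMARCA4 was called at 1782 of 23276 SOX10-alone sites without it in DMSO (7.66%), against 13.8% over all such SOX10 sites. New H3K27ac was called at 755 of 22577 (3.34%), against 5.38%. Matched for SOX10 strength and promoter position, the difference between SOX10-alone and other SOX10 sites in the share that kept the peak was −10.3 points for SMARCA4 and 0.58 points for H3K27ac.

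Promoter and distal sites moved in opposite directions for SMARCA4. At the 2074 promoter sites SMARCA4 peaks covered 923 in DMSO (44.5%) and 1143 under FHT-1015 (55.1%). It was kept at 82.2% of those that had it, and 384 of 1151 without it (33.4%, 30.7 to 36.1) gained it. At the 25325 distal sites SMARCA4 went from 4799 (18.9%) to 3489 (13.8%), was kept at 45.2% and was gained at 6.44%. The other SOX10 sites did the same, from 74.6% to 82.2% at promoters and from 66.7% to 46.1% at distal sites. H3K27ac at SOX10-alone promoters covered 65.5% and 65.6%, and at distal sites 20.1% and 16.2%.

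**Figure D3:**
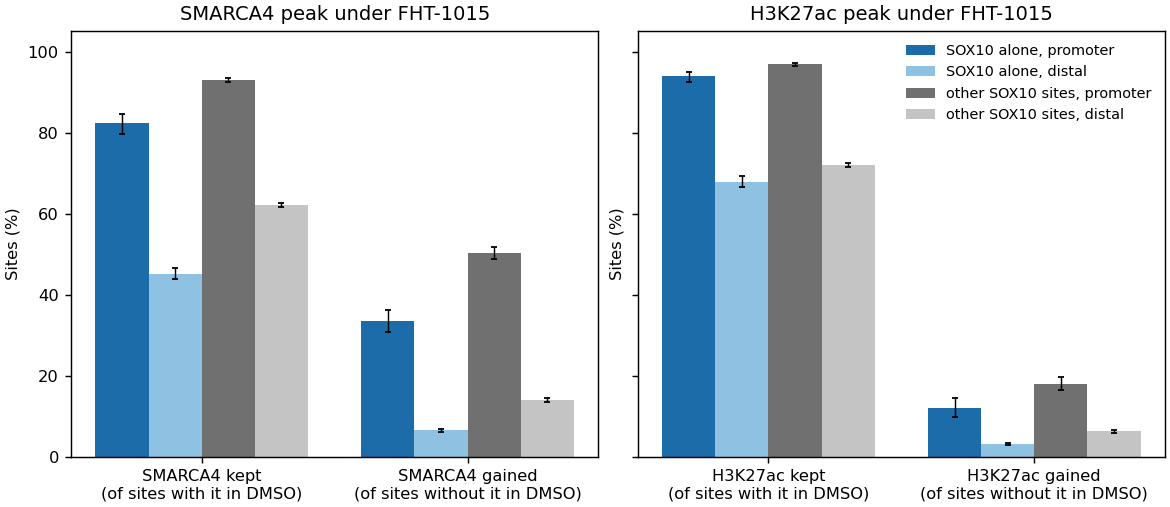
Share of sites (y axes, %) whose SMARCA4 peak (left) or H3K27ac peak (right) was kept under FHT-1015 or newly called there, for promoter sites (within 1 kb of a RefSeq gene start) and distal sites, with SOX10-alone sites in blue and other SOX10 sites in grey; lines are 95% Wilson intervals. SMARCA4 was kept at 82.2% of SOX10-alone promoter sites and 45.2% of distal ones, and gained at 33.4% and 6.44%.

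At strong distal sites the fall in percentage points was larger than over all distal sites, for SOX10-alone and other SOX10 sites. Among the 2512 distal SOX10-alone sites with SOX10 −log10 p of at least 10, SMARCA4 covered 42.2% in DMSO and 19.5% under FHT-1015, and 36.2% of those with it kept it. H3K27ac there covered 28.4% and 21%. At the other strong distal SOX10 sites SMARCA4 covered 85.6% and 60.8%, a fall of similar size, and 67.8% kept it. That share was above the 62.1% over all distal sites of this kind. At SOX10-alone sites the 36.2% was below the 45.2% over all distal ones. The SMARCA4 rise at SOX10-alone promoters was smallest, 2.75 points, among the 582 promoter sites at least 1 kb from any MITF or TFAP2A peak. SMARCA4 peaks over SOX10-alone sites had a median −log10 p of 5.25 in DMSO and 6.23 under FHT-1015, in libraries whose inferred depth ratio was 0.918.

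By the choice of sites, none had MITF or TFAP2A in DMSO, and under FHT-1015 a peak of either appeared at 3536 (12%). MITF appeared at 1345 sites (4.58%, 4.35 to 4.82) and TFAP2A at 2438 (8.30%, 7.99 to 8.62). Both appeared at 247, and 83 had all 3 factors. The background was taken from 29529 DMSO SMARCA4 peaks free of all 3 factors, where MITF appeared at 2.69% and TFAP2A at 5.6%. At DMSO H3K27ac peaks free of SMARCA4 and the factors the shares were 2.03% and 4.17%. At SOX10 sites with the other factor in DMSO they were 8.42% for MITF and 7.46% for TFAP2A, so MITF appeared less often at SOX10-alone sites than at sites with TFAP2A only. These FHT-1015 libraries were shallower than their DMSO pairs, with inferred depth ratios of 0.854 for MITF and 0.960 for TFAP2A. No FHT-1015 peak of any kind covered 18508 SOX10-alone sites (63.0%).

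TFAP2A appeared at a higher rate at promoters and where SOX10 stayed, although most sites with it were distal (1749) or had lost SOX10 (1896). It was called at 559 promoter sites (27%, 25.1 to 28.9) and at 6.91% of distal sites. At the factor-free SMARCA4 peaks the shares were 16% at promoters (14.6 to 17.4) and 4.53% at distal positions. At SOX10 sites with MITF only they were 30.6% at promoters (27.4 to 34.0) and 5.82% at distal positions. MITF was called at 9.16% of promoter and 4.27% of distal SOX10-alone sites, against 3.26% and 2.69% of the factor-free SMARCA4 peaks. At SOX10 sites with TFAP2A only the MITF shares were higher, at 18.1% and 5.52%. Where SOX10 was kept, TFAP2A appeared at 19.6% and MITF at 9.55%, against 7.13% and 4.06% where SOX10 was lost. TFAP2A appeared at 13.1% of sites under 1 kb from a DMSO peak of either factor and 5.94% of those over 10 kb away. For MITF these shares were 5.72% and 4.21%. A promoter lies near other peaks more often, so these splits share sites and are not separate results.

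**Figure D4:**
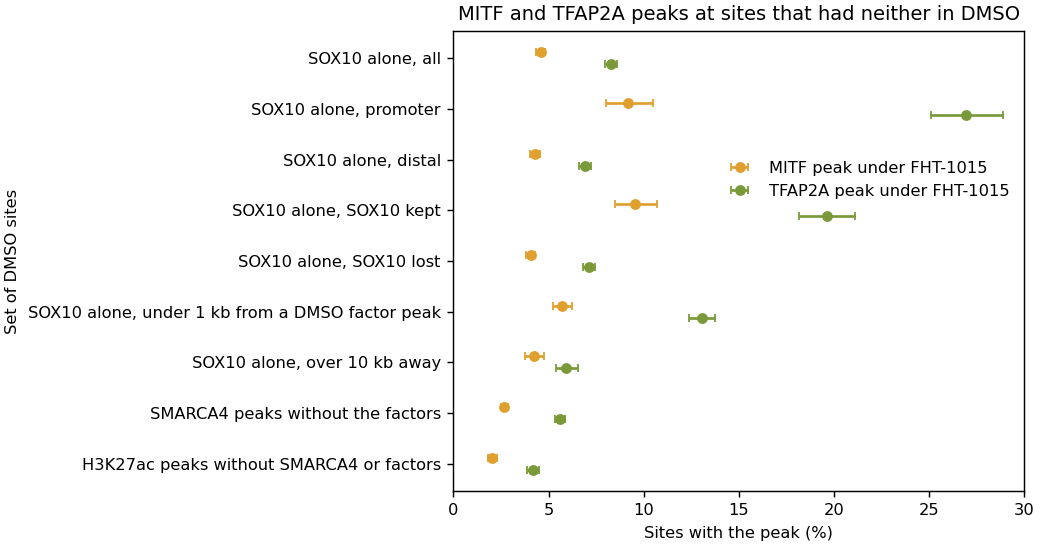
Share of sites (x axis, %) with an FHT-1015 peak of MITF or TFAP2A among sites that had neither in DMSO, for SOX10-alone sites, for subsets of them and for SMARCA4 and H3K27ac peaks without the factors (y axis); points are shares and lines are 95% Wilson intervals. Over all SOX10-alone sites TFAP2A reached 8.30%, against 5.6% at SMARCA4 peaks without the factors.

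Most of the appearing peaks were weak. The median −log10 p was 4.35 for MITF and 5.30 for TFAP2A, and 69 and 412 sites respectively had a peak that reached 10. For MITF 1252 sites (93.1%) and for TFAP2A 2052 (84.2%) had an FHT-1015 peak free of overlap with any DMSO peak of that factor. Sites with such a peak of −log10 p of at least 10 numbered 24 for MITF (0.0817%, background 0.0373%) and 138 for TFAP2A (0.470%, background 0.284%).

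The strongest appearing peaks were extensions of peaks that existed in DMSO. At SEMA3C, which encodes a secreted semaphorin, the SOX10-alone site chr7:80764078-80764262 lay 30 bp from a DMSO peak, and the FHT-1015 MITF peak over it had −log10 p of 366. At UBAP2L the site chr1:154221229-154221485 had an MITF peak of 261. The other 3 of the 5 highest MITF values, 37.9 kb from OSTM1 (298) and at GSG1 (224) and KIDINS220 (221), were of the same kind. For TFAP2A, the sites at MAN2B1 (265), MIB1 (229), TRIM7 (227) and ZBTB5 (223) lay between 15 and 133 bp from a DMSO factor peak. In all 9 of these cases the FHT-1015 peak also covered a DMSO peak of the factor beside the site, and SOX10 was lost.

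Appearing peaks with no DMSO counterpart were weaker. At FSTL5 (chr4:161923092-161923277), 6591 bp from the nearest DMSO factor peak, MITF had −log10 p of 19.7 and TFAP2A of 15.8 under FHT-1015. SMARCA4 (18) and H3K27ac (11.6) were also called there under FHT-1015 only, and SOX10 was kept (5.37 in DMSO and 11.8 under FHT-1015). At ADK, the adenosine kinase gene, MITF had 14.8 and TFAP2A 9.46, and SOX10 was kept. Nearest to GASK1B, 146 kb away, MITF had 14.7, SOX10 was kept, and no SMARCA4 or H3K27ac was called. The highest TFAP2A values of this kind were 25.5 at LOC114841035, 22.7 at CAMTA1 and 22.2 at TMEM245, and SOX10 was kept at TMEM245 only.

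The strongest SOX10-alone sites behaved differently from each other, and −log10 p values of 2 libraries are given side by side, not as a change, because the libraries differ in depth. The strongest was in LRP6, a Wnt co-receptor gene (chr12:12240735-12241533), 8069 bp from the nearest DMSO factor peak, with about 155 reads at the summit. SOX10 had −log10 p of 119 in DMSO and 45.5 under FHT-1015. H3K27ac had 78.1 and 259, SMARCA4 had 9.40 and 20.7, and weak MITF (6.26) and TFAP2A (4.40) peaks appeared. A site in RAPGEF2, which encodes an activator of Rap GTPases (chr4:159242495-159243081), had the same pattern. Its SOX10 values were 75 and 58.5, SMARCA4 9.17 and 20.1, H3K27ac 39.4 and 79.3, and both factors appeared (MITF 4.54, TFAP2A 10.0).

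Other strong sites kept SOX10 with no new factor. The site in C1orf141 (chr1:67096973-67097921) had SOX10 at 111 and 19.1 with SMARCA4 at 22.6 and 23.2. The site in DACH1, a transcriptional cofactor gene (chr13:71579285-71579796), had SOX10 at 92.5 and 14.2. The site nearest to GPC5, a glypican gene 158 kb away (chr13:91240197-91240712), had 87.5 and 6.89. It lay 0.928 kb from a RefSeq gene start, so it counted as a promoter site. The site nearest to TMEM121, 212 kb away (chr14:105741464-105742355), had SOX10 at 77.3 and 51.0 and no SMARCA4 or H3K27ac peak in either condition. In DNM3, which encodes a dynamin, SOX10 had 71.4 and 5.53 (chr1:172330855-172331302), and SMARCA4 was called in DMSO only.

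Of the strong sites that lost SOX10, 4 are described, and 3 of them lost SMARCA4 too. The site nearest to LOC124907996, 39.3 kb away (chr2:230650506-230650944), had SOX10 at 97.1 and SMARCA4 at 11.8 in DMSO, and no peak of any list under FHT-1015. The site nearest to GRIA2, a glutamate receptor gene 93.9 kb away (chr4:157459673-157460186), had 71.4 and 16.8 in DMSO and likewise nothing under FHT-1015. Nearest to SEMA5A, 204 kb away (chr5:8831206-8831647), SOX10 (70.6) and SMARCA4 (5.04) were lost, and H3K27ac had 94.7 in DMSO and 6.23 under FHT-1015. Nearest to TFEC, a relative of MITF but 452 kb away (chr7:115482714-115483210), SOX10 (70.8) was lost, while SMARCA4 had 16.7 and 5.85. 

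Among the SOX10-alone sites with the highest SMARCA4 and H3K27ac, the SOX10 peak was mostly weak. The site nearest to CLMN, 41.5 kb away (chr14:95361249-95361563), had SMARCA4 at 79.6 in DMSO and 9.88 under FHT-1015, with SOX10 at 5.41. This site lay 0.716 kb from a RefSeq gene start and counted as a promoter site. In SCG5, a secretory granule gene, SMARCA4 had 72.6 and 42.5 and SOX10 was lost. A pair of sites in HMCN1 had SMARCA4 at 67.0 and 65.4 in DMSO and at 4.94 and 5.66 under FHT-1015. At CLMN and both HMCN1 sites the FHT-1015 SOX10 peak also covered another DMSO SOX10 peak. The CLMN, SCG5 and HMCN1 sites lay between 37 and 292 bp from a DMSO peak of MITF or TFAP2A. Whether their SMARCA4 belonged to the neighbouring factor peak was not tested. In GPNMB, a melanosomal glycoprotein gene (chr7:23249335-23250001), H3K27ac had 393 and 415, and SOX10 was kept at 7.76 and 7.80. The next 4 sites lay nearest to PTTG1 and shared 1 H3K27ac peak (385 in DMSO, 347 under FHT-1015). A DMSO peak of MITF or TFAP2A lay 283 bp from the GPNMB site and 99 to 1199 bp from the PTTG1 sites.

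SOX10-alone sites were spread over many genes. Each site was given to the protein-coding gene holding its summit or, failing that, to the nearest, so genes next to long intergenic stretches collect sites. They reached 9953 of the 16424 genes with any SOX10 peak, 4500 genes had 1, 508 had at least 10, and 7650 also had a site with both factors. The most were at ZEB2, a zinc-finger factor of the neural crest, with 59 of its 135 SOX10 sites, of which 17 kept SOX10 and only 4 lay inside the gene. PCDH7 had 48 with 10 kept, PCDH9 44 with 4, and PCDH20 39 with 4, all protocadherin genes. CDKAL1, which encodes a tRNA-modifying enzyme, had 46 with 8 kept, and 43 of these lay inside the gene. GPC5 had 46 with 7 kept, CDH11 43 with 3 and GSDMC 43 with 22. PAX3 and SOX6, both neural crest factors, had 39 each, with 12 and 1 kept.

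The share of sites kept differed between genes. Over the 508 genes with at least 10 SOX10-alone sites, a median of 8.33% kept SOX10, 160 genes kept none, and 6 kept at least 50%. Among those 6 were NSUN6 (8 of 11), PTTG1 (9 of 16), TYRP1 (17 of 31), GSDMC (22 of 43) and LOC124900275 (5 of 10). They were singled out after their values were seen. TYRP1 encodes a melanin-synthesis enzyme and PTTG1 a regulator of sister chromatid separation. The sites of 1 gene lie close together, and the copy number of these regions was not analysed here.

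At listed pigment genes a larger share of SOX10 sites was SOX10-alone, and more of those were kept, than over all genes. Among 18 listed pigment genes, 17 had a SOX10 peak and 16 a SOX10-alone site, with 114 of 280 SOX10 sites (40.7%) being SOX10-alone, against 28.4% over all genes. SOX10 was kept at 28 of the 114 (24.6%), against 9.34% over all genes. The other SOX10 sites of these genes were also kept more often, at 52 of 166 (31.3%) against 21.8% over all genes. Higher retention there was therefore not particular to SOX10-alone sites. TYRP1 alone gave 17 of the 28, and without it 11 of 83 (13.3%) were kept. H3K27ac in DMSO covered 57.0% of the 114, against 23.1% over all genes, and 54.2% without TYRP1. Of the 65 acetylated sites, 20 were at TYRP1 and 18 at MITF.

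Individual pigment genes differed. At MITF itself 26 of 68 SOX10 sites were SOX10-alone, 18 were acetylated in DMSO and 3 kept SOX10, whereas 19 of its other SOX10 sites kept it. At MLANA, a melanosome antigen gene, 6 of 9 were SOX10-alone, 5 carried H3K27ac in each condition and none kept SOX10. At PMEL, the melanosome fibril gene, 4 of 6 were SOX10-alone and 1 kept SOX10. TRPM1, a cation channel gene, had 9 with 3 kept, GPNMB 5 with 2 kept, MREG 7 with 1, and RAB27A 3 with 1. DCT (2 sites) and OCA2 (4 sites), which act in melanin synthesis, had no SMARCA4, H3K27ac or kept SOX10 at any SOX10-alone site. TYR had 3, none kept, SLC24A5 4, SLC45A2 1, GPR143 2, BACE2 2 and MYO5A 5, also with none kept. MLPH had SOX10 peaks but no SOX10-alone site, and MC1R was assigned no SOX10 peak.

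**Figure D5:**
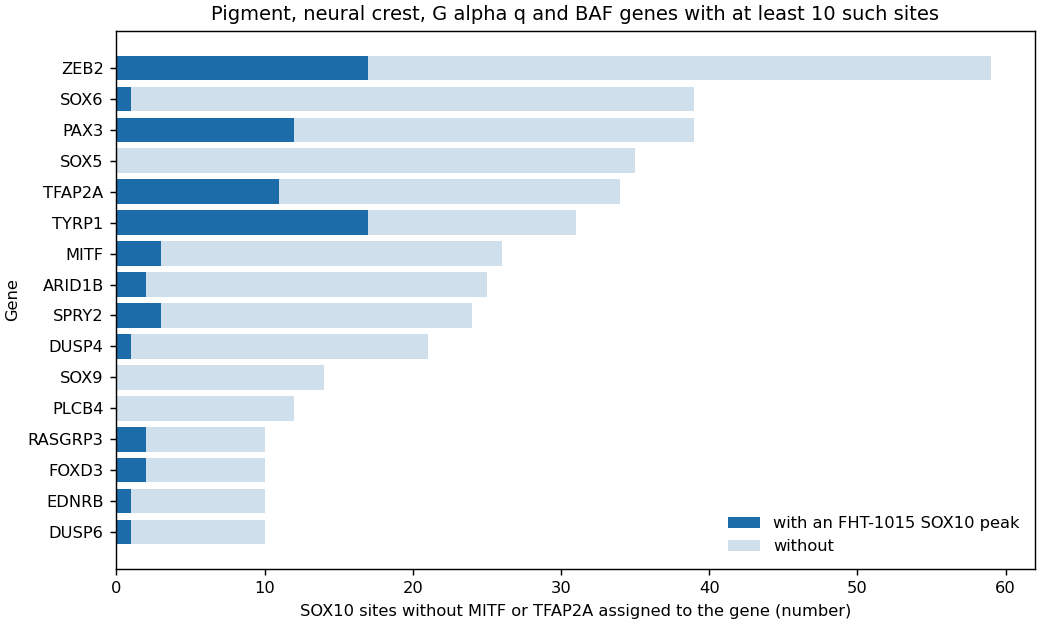
Number of SOX10-alone sites (x axis) assigned to each pigment, neural crest, G alpha q or BAF gene of the fixed lists that had at least 10 (y axis), split into sites with and without an FHT-1015 SOX10 peak. ZEB2 had 59 with 17 kept and TYRP1 31 with 17 kept, whereas SOX5 kept 0 of 35 and SOX6 1 of 39.

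Among neural crest genes, some kept SOX10 at many of their SOX10-alone sites and others at none. The 17 listed genes had 264 SOX10-alone sites among 675 (39.1%), and 47 kept SOX10 (17.8%). Over all genes these shares were 28.4% and 9.34%. The other SOX10 sites of the listed genes were also kept more often, at 35.8% against 21.8% over all genes. ZEB2, PAX3 and TFAP2A (11 of 34) gave most of the 47, and without ZEB2 the share kept was 14.6%. SOX5 (0 of 35), SOX6 (1 of 39) and SOX9 (0 of 14), all relatives of SOX10, kept almost none, and their other SOX10 sites kept 15 of 55, 19 of 58 and 2 of 30. At PAX3, 35 of 39 SOX10-alone sites carried H3K27ac in DMSO and 34 under FHT-1015, and SMARCA4 covered 12 and 17. At SOX10 itself 3 of 7 SOX10 sites were SOX10-alone, all 3 acetylated in DMSO and 1 under FHT-1015, with none kept. The endothelin receptor gene EDNRB kept 1 of 10, the stem cell factor receptor gene KIT 2 of 8, FOXD3 2 of 10 and SNAI2 1 of 5. TFAP2B (5 sites) and LEF1 (3 sites) kept none. SOX8, ERBB3, NGFR and RET had no SOX10-alone site.

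Schwann cell and glial genes had 65 SOX10-alone sites among 201 (32.3%), 6 kept SOX10 (9.23%), and 21.5% were acetylated in DMSO. Over all genes these shares were 28.4%, 9.34% and 23.1%, so the shares kept and acetylated were near those of all genes. The other SOX10 sites of the listed glial genes were kept at 19.1%, against 21.8% over all genes. CDH19, a cadherin of Schwann cell precursors, kept 3 of 16. No site was kept at MBP (6 sites), PMP22 (4), EGR2 (2), GFRA3 (2), MAG (1) and CNP (1). Genes of the G alpha q pathway, which drives uveal melanoma, had 122 among 396 (30.8%), and 8 kept SOX10 (6.56%). Over all genes these shares were 28.4% and 9.34%. The other SOX10 sites of the listed pathway genes were kept at 21.5%, against 21.8% over all genes. SPRY2 kept 3 of 24, RASGRP3, a Ras activator, 2 of 10, DUSP4 1 of 21, DUSP6 1 of 10 and PRKCE 1 of 8. PLCB4 kept 0 of 12, TEAD1 0 of 9, SPRY4 0 of 7 and GNAQ 0 of 6. SMARCA4 at the SOX10-alone sites of DUSP4 covered 6 in DMSO and 1 under FHT-1015, and at those of SPRY2 8 and 11.

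Genes of the BAF complex, the target of the inhibitor, had 52 SOX10-alone sites among 160 (32.5%), and 7 kept SOX10 (13.5%). Over all genes these shares were 28.4% and 9.34%. The other SOX10 sites of the listed BAF genes were also kept more often, at 34.3% against 21.8% over all genes. ARID1B held 25 of the 52 with 2 kept, and SMARCA4 covered 7 of these 25 in DMSO and 10 under FHT-1015. SMARCC1 kept 1 of 7, ARID2 2 of 7, SMARCA2 1 of 2 and SMARCD2 1 of 1. SMARCA4 (2 sites), PBRM1 (3) and SMARCD3 (3) kept none. H3K27ac in DMSO covered 50% of the 52, against 23.1% over all genes, and 37.0% without ARID1B. MITF appeared at 6 of the 52 (11.5%), against 4.57% over all genes. Of the housekeeping genes ACTB, GAPDH and TBP, with 9 SOX10 sites, ACTB had the only SOX10-alone site, acetylated in both conditions and without SMARCA4.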

How the data were processed

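ChIP-seq of 5 antibodies in 92-1 cells gave 14 peak lists (10 narrow, 4 broad) from 10 libraries. BWA, SAMtools, Picard, MACS2 and hg38 are named, without version or role, in the submitters' processing notes. The fold of each peak is a ratio over background deposited by the authors, and the −log10 p and −log10 q were also deposited by the authors. The score column was not used. Each list belongs to 1 library.

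Using Python 3.11.15 with pandas 2.3.3, numpy 2.4.6, scipy 1.17.1 and matplotlib 3.10.9, narrow peaks of the DMSO SOX10 list with distinct start and end were kept if they shared no base with a DMSO MITF or TFAP2A peak. The TFAP2A target is written AP-2 in the sample titles. Readouts needed an overlap of at least 1 base. Shares carry 95% Wilson intervals. Matched differences were taken within deciles of DMSO SOX10 −log10 p holding at least 20 sites of both kinds. The overlap, gap and read-recovery code was tested on simulated data, and the matching code was not.

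Summit reads were recovered assuming a Poisson tail with 1 pseudocount, a form inferred from the values: whole reads, within 0.005, came out for 100% of peaks with −log10 p up to 250 in all 10 lists. The FHT-1015 SOX10 list needed a scale of 0.89. Median summit reads ranged from 8 to 25 over the lists.

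Gene starts came from 35116 RefSeq promoter windows and gene bodies from 20056 protein-coding RefSeq genes (GRCh38.p14). The 1974 sites on chromosomes or contigs without a start in that table were left out of the promoter and distal split. CTCF motifs were not searched. Genes named were those of the fixed lists, the 10 with the most SOX10-alone sites, and those of the strongest SOX10, kept, MITF, TFAP2A, SMARCA4 and H3K27ac sites. The strong lost sites near TFEC and SEMA5A, the promoter windows, the sites with wholly new factor peaks, the genes that kept at least 50% of their sites and FCRL5 were named after their values were seen. Sites on chromosome 8 are not described singly, and some listed genes are not reported here. The sites and gene lists were chosen with earlier results of these data known.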

Additional observations from a re-analysis of the deposited data

How the results depend on the processing

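Each share was recomputed under the alternatives. No paired analysis was possible because each antibody had 1 library per condition. In 9 of 52 comparisons the value stayed inside the interval of the main setting, and in 1 the direction turned. The other 42 were counted as moved, and those among them that are matched differences have no interval. The cause of these moves was not tested.

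With only peaks of q-value under 0.05, SOX10-alone sites made up 27.2% of SOX10 sites, 6.48% kept SOX10, SMARCA4 covered 19.2% in DMSO and was kept at 49.2%, and MITF appeared at 3.40%. For sites at least 1 kb from any MITF or TFAP2A peak the share was 19.8%, SOX10 was kept at 8.81%, SMARCA4 covered 13% and was kept at 33.7%, H3K27ac covered 10.5% and was kept at 62.8%, MITF appeared at 4.08% and TFAP2A at 6.23%. With windows of fixed width around the summit the share was 27%, SOX10 was kept at 10.0%, MITF appeared at 5.22% and TFAP2A at 8.89%. For SOX10 −log10 p of at least 10 the share was 7.44%, SOX10 was kept at 15.0%, SMARCA4 covered 41.6% and was kept at 38.5%, H3K27ac covered 32.0% and was kept at 68.3%, MITF appeared at 5.22% and TFAP2A at 10.4%.

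With at least 50% of the site covered, SOX10 was kept at 7.69%, SMARCA4 covered 16.4% and was kept at 46.8%, H3K27ac covered 20.2%, MITF appeared at 2.97% and TFAP2A at 6.02%. With broad lists, SMARCA4 covered 27.4% and was kept at 55.1%, and H3K27ac covered 25.4%. Matched on strength, the differences from other SOX10 sites were −1.05 points for SOX10 kept, −32.6 for SMARCA4 and −23.0 for H3K27ac in DMSO. Alternatives added after seeing the data were matching also on promoter position (0.856, turning the direction, −30.2 and −18.4), counting only FHT-1015 SOX10 peaks over no other DMSO SOX10 peak (8.79% kept), and counting only appearing peaks that share no base with a DMSO peak of the factor (4.26% for MITF, 6.99% for TFAP2A). SMARCA4 at SOX10-alone promoters was higher under FHT-1015 than in DMSO in the main setting and the 6 alternatives, by 2.75 to 11.2 points, and lower at distal sites in each. Weak sites, with about 13 reads at the summit, limit what a lost peak can show.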

Other observations

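SOX10-alone sites were not spread evenly over chromosomes. They made up 33.2% of SOX10 sites on chromosome 18, 32.8% on chromosome 13 and 22.3% on chromosome 22. The share that kept SOX10 ranged from 5.48% on chromosome X to 17.2% on chromosome 19, against 9.41% over all. Gene density and copy number differ between chromosomes, and their part was not tested. Genes whose SOX10 sites were all SOX10-alone were rare among genes with at least 5 SOX10 sites, at 2 of 6388. One was FCRL5, an Fc receptor-like gene of B cells, with 6 sites, of which 2 kept SOX10 and none carried SMARCA4 or H3K27ac. MITF and TFAP2A each appeared there at 1 site.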
